A study of Mus musculus with 4 samples.

Results

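The mitochondrial ribosomal proteins were followed in mouse long-term haematopoietic stem cells labelled wild-type (WT) or Sin3B knockout (Sin3B KO). They were taken as every gene with library values whose symbol starts with Mrpl or Mrps and a number, which gave 72 of the 9244 genes with values, 47 of them proteins of the large and 25 of the small subunit. Sin3B is a scaffold of a histone deacetylase corepressor complex. The stem cells were sorted from C57BL/6 mice of 8 to 12 weeks by the gate LSK CD34- Flk2-, a lineage-negative, Sca-1 and Kit positive population that lacks CD34 and Flk2. Polyadenylated RNA was amplified with a low-input (SMARTer) method and sequenced in 2 libraries of each genotype. The labels name no treatment, do not say how or in which cells Sin3B was deleted, and do not tell whether each library came from its own animals. The p-values therefore measure how much these libraries vary, which may be technical only.

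The mitochondrial ribosome translates the few proteins that mitochondrial DNA encodes, which are core subunits of the respiratory chain and the ATP synthase. Its rRNA is made inside the organelle, whereas all of its proteins are encoded in the nucleus, made in the cytosol and imported. Part of these proteins descend from bacterial ribosomal proteins and part are found only in mitochondria; the structural names (uL16m, bS6m, mL44) mark proteins shared by all ribosomes with u, proteins shared with bacteria with b and proteins particular to mitochondria with m. Long-term stem cells are known for low mitochondrial activity and low protein synthesis.

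Sin3b, the targeted gene, stood at 1522 and 1825 normalised reads in WT libraries 1 and 2 and at 755.4 and 646.5 in Sin3B KO libraries 1 and 2, a log2 difference of -1.25 (SE 0.22, adjusted p = 0.548 by limma over all genes, 0.028 with the replicate number as a block). Both KO libraries thus kept Sin3b reads, at 0.42 of the WT level in the fit. The authors' deposited table gave Sin3b a log2 difference of -1.03 and an adjusted p of 0.0025. The limma fit without a block therefore did not call the targeted gene, whereas the authors' deposited table did. The value of each gene is its reads divided by a size factor of the library, as the authors deposited it. Every value was a whole multiple, within 0.01, of 1 step per library, and counted in these steps the listed genes held 9950979 reads in WT 1, 11754067 in WT 2, 12637960 in KO 1 and 13700630 in KO 2. A single member held 113 to 3073 of them. All 14 LT-HSC markers examined were listed and none was at 0. Of these, 10 were above 0 in Sin3B KO against WT libraries, with a median log2 difference of 0.11. Fgd5 (710.3 and 1240.3 in WT, 256.6 and 643.0 in KO libraries, log2 difference -1.21, SE 0.44) and Hlf (-0.44, SE 0.21) had both KO libraries below both WT libraries, and Ly6a (0.15) and Tek (0.31) had both above. Markers of other blood cells were also present: the summed values of 14 myeloid genes were 80231 and 14972 in WT 1 and WT 2 and 55518 and 24998 in KO 1 and KO 2, and those of 7 of 14 erythroid genes were 7009, 4250, 14926 and 5168, with Slc4a1 at 0 in WT 2. All 7 erythroid genes were above 0, with a median log2 difference of 0.78, and in Epor (0.50, SE 0.25) and Car1 (1.06, SE 0.38) both KO libraries were above both WT libraries. These 6 markers were singled out after their values were seen; none had an adjusted p under 0.05 with limma, and the part of these cells in the member levels was not tested. Fewer cells of a type and less RNA per cell cannot be told apart in these bulk samples.

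The promoters were compared first, as the sequences that the nuclear genes of this scattered family could have in common. RefSeq (GRCm38.p6) gave a window of 300 bases, of which 50 lie after the start, for 63 of the 72 members, 7079 of the listed genes and 27025 symbols in all. Exact matches on either strand were sought for motifs of factors known to control nuclear genes for mitochondria. The letters CCGGAAG, the core bound by ETS factors such as GABP, were in 24 members (38.1%), against 22.5% of listed genes and 9.93% of all symbols. The NRF1 letters GCGCATGC were in 8 (12.7%, against 6.67% and 3.05%). The YY1 letters AAGATGGCG were in 7 (11.1%, against 4.18% and 1.64%), and the E-box CACGTG, bound by Myc with Max, was in 5 (7.94%, against 12.5% and 8.09%). Of the members with a window, 28 held none of these letters. The GC content had a median of 58.3% in members, 60.7% in listed genes and 52.7% in all symbols, and no difference between these shares was tested. A match is a description of these letters and not a binding site.

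Stretches of 100 bases just before the first exon follow for 6 of the 8 members with the largest log2 differences among those whose KO libraries lay above both WT libraries, and for Mrpl34, the member with the highest level per exon length. The stretches left for the other leading members, Mrps31 (30 bases) and Mrpl50 (82 bases), are shorter and are not shown. Of these 8 members, 5 held none of the motifs in their windows. The stretches end 0 to 58 bases before the start, since bases in annotated exons were left out, and capitals mark a matched motif.

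Mrpl16 (chr19:11770291-11770390, + strand): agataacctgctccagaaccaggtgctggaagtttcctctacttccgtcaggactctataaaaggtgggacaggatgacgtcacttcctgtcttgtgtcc
Mrpl44 (chr1:79775860-79775959, + strand): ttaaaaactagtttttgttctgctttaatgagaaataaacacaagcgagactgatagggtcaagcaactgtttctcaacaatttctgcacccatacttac
Mrpl22 (chr11:58171561-58171660, + strand): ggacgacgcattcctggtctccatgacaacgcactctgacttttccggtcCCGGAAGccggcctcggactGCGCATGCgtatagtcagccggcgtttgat
Mrpl20 (chr4:155802778-155802877, + strand): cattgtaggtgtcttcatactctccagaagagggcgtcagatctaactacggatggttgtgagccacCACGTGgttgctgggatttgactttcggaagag
Mrps2 (chr2:28467966-28468065, + strand): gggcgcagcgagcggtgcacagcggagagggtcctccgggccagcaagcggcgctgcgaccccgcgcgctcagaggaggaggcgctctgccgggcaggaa
Mrps18a (chr17:46110886-46110985, + strand): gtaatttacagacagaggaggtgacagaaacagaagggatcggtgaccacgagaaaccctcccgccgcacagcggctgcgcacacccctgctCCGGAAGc
Mrpl34 (chr8:71464826-71464925, + strand): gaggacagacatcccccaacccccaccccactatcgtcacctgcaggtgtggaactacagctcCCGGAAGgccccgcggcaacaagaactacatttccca

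Mrpl16, Mrpl44 and Mrps2, like Mrps31 and Mrpl50, held none of the motifs anywhere in their windows. Mrpl22 held an ETS match whose first base lies 53 bases and an NRF1 match whose first base lies 33 bases before the start. Mrpl20 held an E-box at 33 bases, and Mrps18a and Mrpl34 held ETS matches at 26 and 37 bases. ETS matches began before the start in 18 of the 24 members that had one, whereas 5 of the 7 YY1 matches lay only after it. The motif letters of ETS and YY1 occurred together in 2 members, Mrps18a and Mrps27, and did not overlap in either.

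In Sin3B KO against WT libraries, most mitochondrial ribosomal protein genes stood slightly higher in Sin3B KO, and no member passed the test. The log2 difference was above 0 in 65 of 72 members (90.3%), against 53.4% of all genes. Its median was 0.26 (1.20-fold), with quartiles of 0.14 and 0.39, against 0.03 over all genes. Both KO libraries lay above both WT libraries in 37 members (51.4%), against 24.7% of all genes, and both lay below in 2, against 19.4% of all genes. With limma, 0 of the 72 had an adjusted p under 0.05 (range 0.548 to 0.991), and 0% of all genes did. At an unadjusted p under 0.05, 8 members were higher in KO (Mrpl16, Mrpl20, Mrpl35, Mrpl44, Mrpl50, Mrps2, Mrps18a and Mrps31) and 0 lower, against 4.97% of all genes higher and 3.95% lower.

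The count of members above 0 moved with the scaling and with the libraries used. Scaling to the upper quartile of the listed values gave 56 of 72 above 0 beside 41.5% of all genes. The lowest count among the alternatives that kept all 72 members was 53, beside 52.5% of all genes, without WT library 1. Upper quartile scaling moved the median of all genes from 0.03 to -0.08. Relative to the median of all genes, the member median was 0.23 higher with either scaling. A scaling factor moves all genes of a library nearly alike, so this equality was fixed beforehand and is no check of the scaling. Relative to all genes, the member median was 0.12 higher without WT library 1 and 0.40 higher without WT library 2. The 95% interval of a single member reached a median of 0.55 to either side on the log2 scale, and for 21 members the interval reached a 2-fold higher level.

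**Figure D1:**
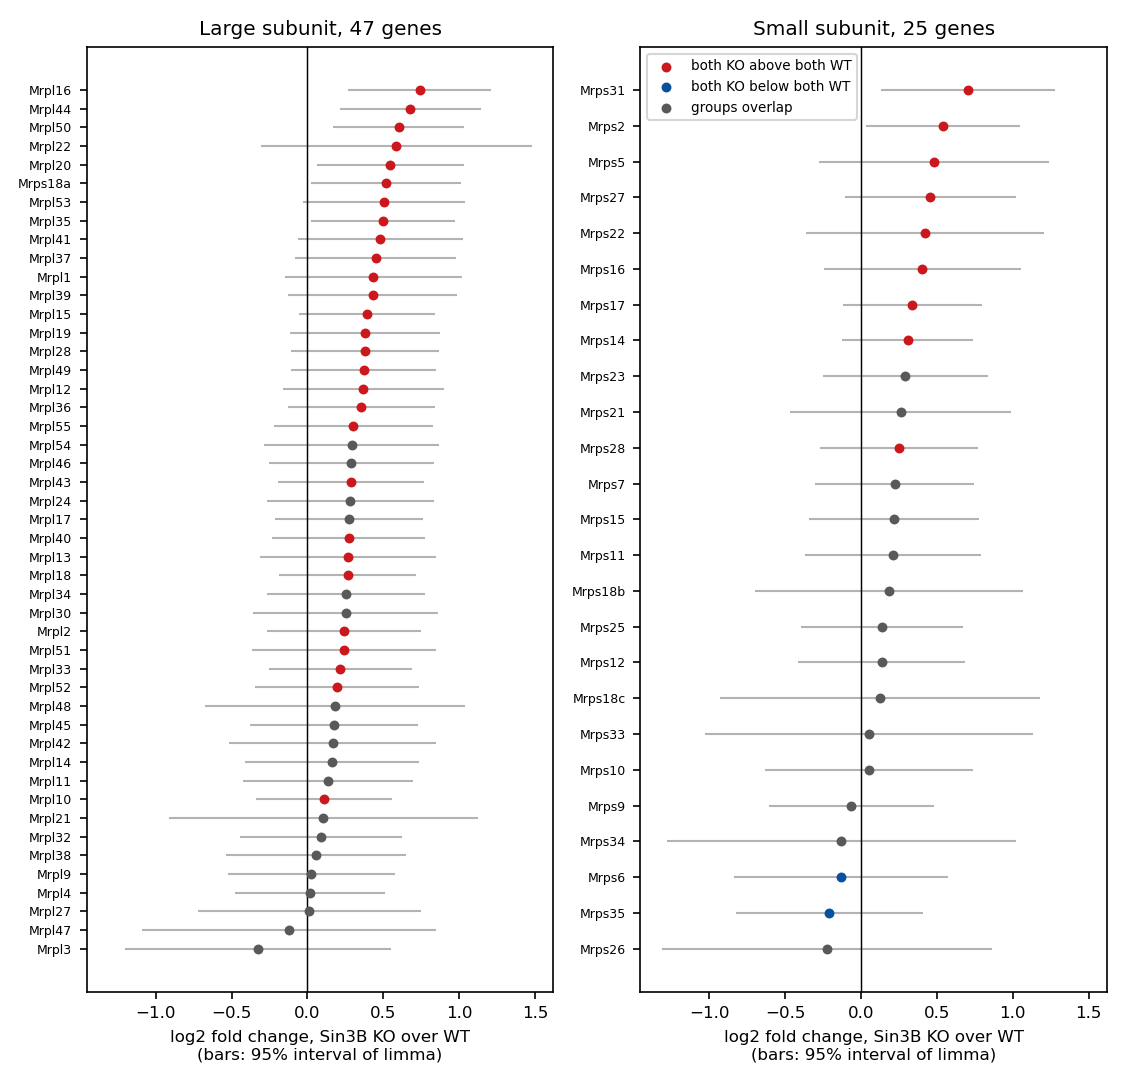
The log2 difference between Sin3B KO and WT libraries (x axis, with its 95% interval from limma as bars) is plotted for the 47 large subunit members (left) and the 25 small subunit members (right), in order of size. Red points mark the 37 members with both KO libraries above both WT libraries, blue points the 2 with both below, and grey points overlapping groups; the points of 65 members lie above 0, and the intervals of 8 leave out 0.

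Among proteins of the large subunit, Mrpl16 had the largest difference. Mrpl16 (uL16m), whose bacterial relative L16 sits beside the peptidyl transferase centre, had 854.0 and 892.1 normalised reads in the WT libraries and 1369.6 and 1552.6 in the KO libraries. Both KO values were above both WT values, with a log2 difference of 0.74 (SE 0.21, unadjusted p = 0.0065, n = 2 per group, limma). Mrpl44 (mL44), a protein with a ribonuclease III fold that is mutated in an inherited cardiomyopathy, had 1329.4 and 1316.5 in WT and 1904.9 and 2355.2 in KO libraries, a log2 difference of 0.68 (SE 0.20). Mrpl50 (mL50), particular to mitochondria, had 1478.8 and 1485.6 in WT and 2174.1 and 2324.0 in KO libraries, a log2 difference of 0.60 (SE 0.19). In both genes the WT libraries were nearly equal, and the KO libraries stood apart from them.

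Mrpl20 (bL20m), related to a bacterial protein needed early in assembly of the large subunit, had 799.2 and 929.7 in WT and 1275.4 and 1244.9 in KO libraries, a log2 difference of 0.55 (SE 0.21). Mrpl22 (uL22m), whose relatives line the exit tunnel of the nascent chain, had few reads, with 147.1 and 149.4 in WT and 215.3 and 231.0 in KO libraries. Both KO values were higher, but the error at this level was large (log2 difference 0.59, SE 0.39, unadjusted p = 0.17 by limma, n = 2 per group). Mrpl35 (bL35m), the eighth by p, had 1165.2 and 1291.7 in WT and 1903.0 and 1574.9 in KO libraries, a log2 difference of 0.50; it lies outside the rule by which genes were chosen to be named.

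Among small subunit proteins, Mrps31 and Mrps2 had the largest differences. Mrps31 (mS31), particular to mitochondria, had 498.2 and 455.0 in WT and 890.0 and 676.0 in KO libraries, a log2 difference of 0.70 (SE 0.25). Mrps2 (uS2m), the relative of bacterial S2, had 906.4 and 1168.1 in WT and 1398.4 and 1606.1 in KO libraries, a log2 difference of 0.54 (SE 0.22). Both genes had the KO libraries above the WT libraries, and in Mrps2 the gap between WT 2 and KO 1 was smaller than the gap between the 2 WT libraries. Of the small subunit members, 20 of 25 were above 0 with a median of 0.21, and of the large subunit members 45 of 47 with a median of 0.27. No test of the difference between the subunits was made.

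The members in which both KO libraries lay below both WT libraries were small subunit proteins. Mrps35 (mS35) had 408.2 and 464.9 in WT and 399.8 and 354.9 in KO libraries, a log2 difference of -0.21 (SE 0.27). Mrps6 (bS6m) had 304.4 and 292.8 in WT and 273.0 and 271.1 in KO libraries, a log2 difference of -0.13 (SE 0.31). Each difference was smaller than its own standard error. The lowest log2 difference of all members was that of Mrpl3 (uL3m), at -0.33, with values of 226.9 and 288.8 in WT and 253.7 and 164.1 in KO libraries, which overlapped.

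**Figure D2:**
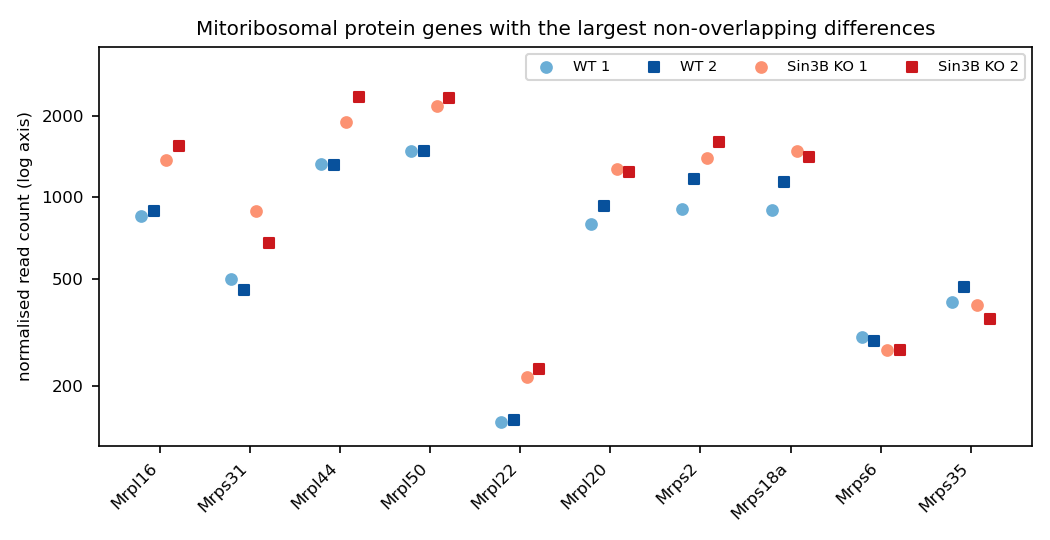
Normalised reads (y axis, log scale) are plotted for each of the 4 libraries in the 8 members with the largest positive log2 differences among those whose groups do not overlap, and in Mrps6 and Mrps35, where both KO libraries lay below. Each point is 1 library; in Mrpl16, Mrpl44 and Mrpl50 the KO points lie well apart from the WT points, whereas in Mrps6 and Mrps35 all 4 points lie close together.

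The Mrps18 paralogs, 3 genes descended from the same bacterial protein, were measured separately. Mrps18a encodes mL66, which despite its name is part of the large subunit, and had 895.0 and 1137.4 in WT and 1484.0 and 1410.8 in KO libraries (log2 difference 0.52, SE 0.22). Mrps18b (mS40) had 198.4 and 161.2 in WT and 209.5 and 197.1 in KO libraries, and Mrps18c (bS18m) 145.9 and 123.6 against 152.8 and 140.9. The last 2 paralogs had few reads and overlapping groups, with log2 differences of 0.18 (SE 0.39) and 0.13 (SE 0.46). In the stalk, which recruits translation factors to the large subunit, Mrpl10 (uL10m) had 1315.7 and 1410.4 in WT and 1443.6 and 1494.6 in KO libraries, a log2 difference of 0.11 (SE 0.20) that was -0.005 with upper quartile scaling. Its partner Mrpl12 (bL12m) had 1286.1 and 1520.2 in WT and 2134.6 and 1524.0 in KO libraries, a log2 difference of 0.37 (SE 0.23). For Mrpl12 the KO libraries differed from each other more than the WT libraries did, and KO 2 was level with WT 2.

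Proteins with a bacterial counterpart and proteins particular to mitochondria had like values. The split follows the letters of the structural names (u or b against m) and not descent. Mrps18a and Mrps18b therefore count as particular to mitochondria. Of the 44 with a counterpart by name, 40 were above 0, with a median of 0.25. Of the 28 named as particular to mitochondria, 25 were above 0, with a median of 0.29. Members with more reads had larger differences, with a Spearman rho of 0.42 between the log2 difference and the mean level. The 72 genes share the same 4 libraries and are not independent. This was not particular to members: leaving out all genes that averaged under 500 raised the median of all genes from 0.03 to 0.11. The share of all genes above 0 then rose from 53.4% to 62.2%. The median of the 54 members kept was 0.29, which was 0.18 above that of all genes, against 0.23 without this filter. Differences also fell with exon length over all genes (rho -0.23, against -0.10 within the members), and members are short, with a median summed exon length of 2213.5 bases against 4664 for all genes. After that trend was taken out, the member median was 0.18, against 0.04 for all genes.

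The 4 libraries did not differ by genotype alone. Summed over members, the normalised reads were 55152.5 in WT 1, 65357.1 in WT 2, 75706.4 in KO 1 and 72701.9 in KO 2, or 0.486%, 0.562%, 0.623% and 0.595% of all listed signal. WT 1 was the lowest library for 53 of the 72 members and WT 2 for 12, and the highest library was KO 1 for 38 members and KO 2 for 20. Between the WT libraries, WT 2 was higher in 57 members, with a median log2 difference of WT 1 from WT 2 of -0.26, against -0.05 over all genes. This is as large as the median difference between the genotypes. The myeloid sum given above was highest in WT 1 (80231) and next in KO 1 (55518), the library with the highest member sum. It was 24998 in KO 2 and lowest in WT 2, at 14972. The part of myeloid cells in the member levels was not tested.

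**Figure D3:**
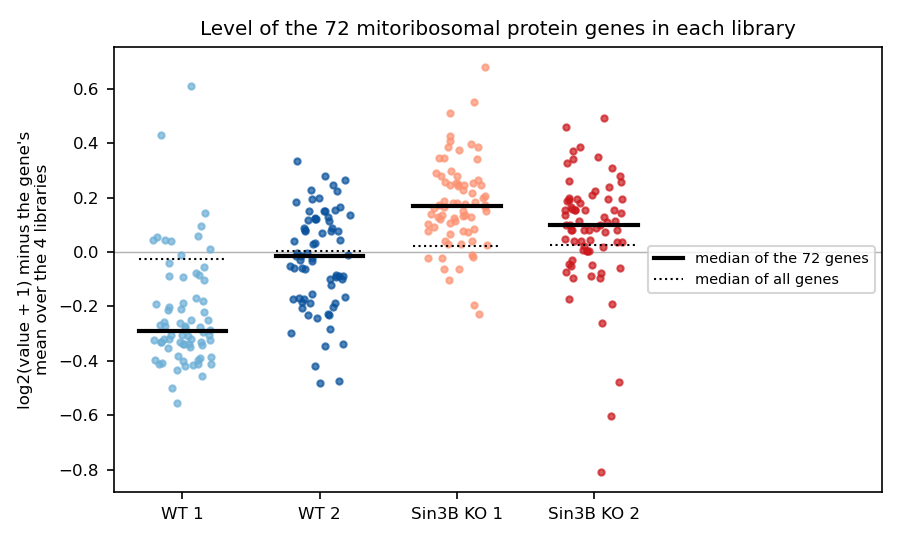
Each point is 1 of the 72 members in 1 library, plotted as log2(value + 1) minus the mean of that gene over the 4 libraries; thick lines are the medians of the members and dotted lines those of all genes. The member medians are -0.29 in WT 1, -0.01 in WT 2, 0.17 in KO 1 and 0.10 in KO 2, whereas those of all genes stay between -0.03 and 0.03.

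Replicate libraries differed by a median ratio of 1.25 between the WT libraries and 1.12 between the KO libraries, and by over 1.5-fold in 5 and 4 members. Mrps34 (mS34), a protein particular to the mitochondrial small subunit, spread most, with 815.2 and 381.8 in WT and 854.4 and 304.1 in KO libraries. Mrps26 (mS26) had 250.8 and 161.2 in WT and 241.2 and 122.2 in KO libraries. In both genes library 1 of each genotype was the higher, the reverse of most members in WT. Exons of Mrps34 overlap those of Nme3 on the same strand, so reads of these genes may not be told apart.

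Per exon length, members covered a 70.8-fold range. The highest, as mean normalised reads per kb of summed exons over the 4 libraries, were Mrpl34 (bL34m) at 1876 ± 279 (SD, n = 4), Mrpl28 (bL28m) at 1824 ± 338, Mrpl36 (bL36m) at 1792 ± 307 and Mrpl18 (uL18m) at 1253 ± 153. All are large subunit proteins related to bacterial ones, and the first 3 are no further apart than their SDs. The lowest were Mrps10 (uS10m) at 39.1 ± 2.9, Mrpl47 (uL29m) at 37.5 ± 4.4, Mrpl3 at 35.0 ± 7.9 and Mrpl48 (mL48) at 26.5 ± 3.9. In the whole order, 66 of 71 neighbours differed by no more than the larger of their SDs. The median was 380.0 per kb in large and 223.4 in small subunit members.

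The order depends on the gene model. With the length of the principal transcript in place of all exons, Mrpl36 ranked first, Mrpl28 was at rank 3, Mrpl34 at 5 and Mrpl18 at 7, while Mrps10 moved up to rank 51 of 72; the orders had a Spearman rho of 0.82. By genotype, Mrpl34 had 891.6 and 1198.8 in WT and 1277.3 and 1187.8 in KO libraries, and Mrpl36 had 1571.1 and 2102.8 against 2358.6 and 2289.2. Mrpl28 had 1867.6 and 2533.0 against 2953.5 and 2713.7, and Mrpl18 had 1464.0 and 1724.0 against 1952.0 and 1864.7. WT 1 was the lowest library in each of these abundant members, with log2 differences between genotypes of 0.25, 0.35, 0.38 and 0.26. The low members Mrps10, Mrpl47 and Mrpl48 had differences of 0.05, -0.12 and 0.18, with overlapping groups; that of Mrps10 was -0.03 with total and -0.06 with upper quartile scaling.

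**Figure D4:**
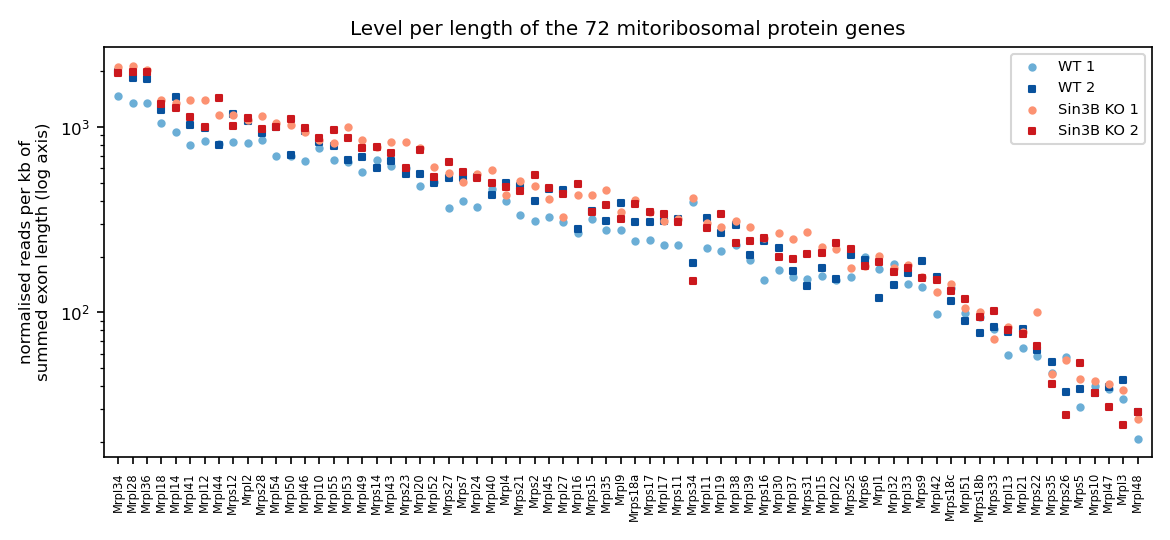
Normalised reads per kb of summed exon length (y axis, log scale) are plotted for each of the 72 members, in order of their mean, with 1 point per library. The means run from 1876 for Mrpl34 to 26.5 for Mrpl48, and the 4 points of Mrps34 fall into a high and a low pair.

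Cytosolic ribosomal proteins, which are built into a different ribosome, were centred slightly below 0. Kinases and binding proteins that share the name pattern were left out, once the names had been seen. The 61 cytosolic genes left had a median level of 643.4 normalised reads, against 708.9 for all genes. Their level was thus below that of all genes, and whether their reads were counted in full was not tested. Of these 61, 23 were above 0 (37.7%, against 53.4% of all genes), with a median of -0.03, against 0.03. Both KO libraries were above both WT libraries in 6 of them (9.84%) and below in 16, against 24.7% and 19.4% of all genes. The listed nuclear genes of the respiratory chain and its assembly, whose core partners the mitochondrial ribosome makes, were 78. Of these, 66 were above 0 (84.6%, against 53.4% of all genes), with a median of 0.24. Both KO libraries were above both WT libraries in 39 (50%) and below in 2, against 24.7% and 19.4% of all genes. With the trend on exon length taken out, the medians were 0.18 in members, 0.14 in respiratory chain genes and -0.12 in cytosolic ribosomal proteins, against 0.04 over all genes. No difference between the lists was tested.

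**Figure D5:**
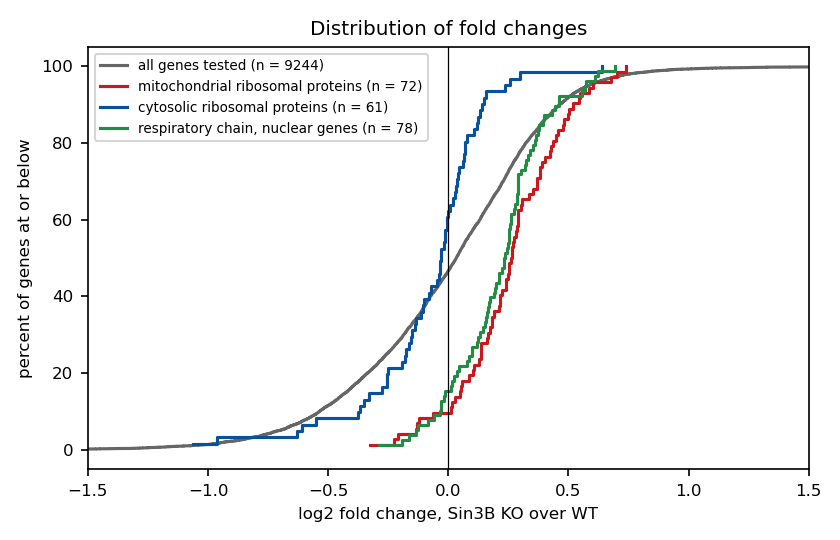
Cumulative curves give the percent of genes (y axis) at or below each log2 difference between Sin3B KO and WT libraries (x axis, drawn from -1.5 to 1.5) for all 9244 genes, the 72 members, 61 cytosolic ribosomal proteins and 78 respiratory chain genes. The curves of the members and of the respiratory chain lie to the right of that of all genes over most of the range, with medians of 0.26 and 0.24 against 0.03, and the median of the cytosolic ribosomal proteins is -0.03.

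Other genes of mitochondrial translation and gene expression, pooled with 9 regulators of nuclear genes for mitochondria, were more mixed. By list, the medians ran from 0.06 in these regulators to 0.25 in mitoribosomal proteins without an Mrpl or Mrps name. Of 76 listed genes, 53 were above 0, with a median of 0.14, and the KO libraries were above the WT libraries in 31 (40.8%, against 24.7% of all genes) and below in 9 (19.4% of all genes). None passed the adjusted threshold with limma, and at an unadjusted p under 0.05, 4 were higher and 1 lower, against 4.97% and 3.95% of all genes, so the share called higher was near that of all genes. The list of mitoribosomal proteins with other names also holds Oxa1l (0.11), a membrane insertase and not itself a ribosomal protein. Its 8 listed genes were all above 0, the lowest being Gadd45gip1 at 0.00, with a median of 0.25. Aurkaip1 (mS38), with the most reads of them, had 1320.3 and 1860.5 in WT and 1862.7 and 2077.8 in KO libraries. Ptcd3 (mS39), which lies at the mRNA entrance, had 1155.0 and 996.0 against 1402.3 and 1263.6, and Ict1 (mL62), a peptidyl-tRNA hydrolase built into the large subunit, 358.0 and 561.8 against 629.5 and 573.4. All 3 had KO above WT, with log2 differences of 0.33, 0.31 and 0.42.

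Translation factors had a median of 0.09, with 7 of 12 above 0. Gfm1, the elongation factor that moves the ribosome along the mRNA, had 629.4 and 560.8 in WT and 1004.4 and 847.2 in KO libraries (log2 difference 0.63, SE 0.23). Mrrf, which recycles ribosomes after termination, differed by 0.32. Mtfmt, which formylates the initiator methionyl-tRNA, had 435.5 and 362.0 in WT and 326.8 and 290.7 in KO libraries, a log2 difference of -0.36. The initiation factor Mtif2, with the most reads of these, had 1249.6 and 696.3 in WT and 966.9 and 785.7 in KO libraries, with overlapping groups and a difference of -0.10 that was 0.32 without WT 1.

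Assembly and rRNA modification factors were above 0 in 19 of 24, with a median of 0.19. Fastkd2, which binds the large rRNA and is needed for assembly of the large subunit, had 969.1 and 618.2 in WT and 1515.7 and 1251.2 in KO libraries (log2 difference 0.83, SE 0.27). Rnmtl1, a methyltransferase of the large rRNA, differed by 0.54. Mrm1, another methyltransferase of that rRNA, had 701.2 and 519.3 in WT and 431.5 and 351.4 in KO libraries (-0.63, SE 0.28). Wbscr16, an assembly factor also called Rcc1l, had 120.9 and 269.0 in WT and 63.4 and 87.4 in KO libraries (-1.27, SE 0.60). The inner membrane protease Yme1l1, with the most reads, had 4715.7 and 2937.6 in WT and 4137.6 and 4714.8 in KO libraries, which overlapped.

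Genes of mitochondrial transcription, RNA processing and DNA maintenance were above 0 in 13 of 23. Fastkd5, which takes part in the processing of mitochondrial precursor RNA, had the smallest p of all these lists, with 589.5 and 561.8 in WT and 1099.5 and 1154.0 in KO libraries (log2 difference 0.97, SE 0.22, unadjusted p = 0.0018 by limma, n = 2 per group). Tbrg4, of the same FASTK family, had 1221.1 and 1550.9 against 2234.6 and 2043.1 (0.63, SE 0.21). The RNA helicase Supv3l1 and the DNA polymerase subunit Polg2 were lower, by log2 differences of -0.39 and -0.41, with standard errors of 0.31 and 0.35. Hsd17b10, a subunit of mitochondrial RNase P and the gene with the most reads, differed by 0.24.

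Of the regulators of nuclear genes for mitochondria, 6 of 9 were above 0, with a median of 0.06. Myc, which binds E-boxes, had 8123.6 and 8927.4 in WT and 11019 and 9302.1 in KO libraries, a log2 difference of 0.25 (SE 0.19). Sp1 had 1685.1 and 1826.8 against 876.5 and 1407.2 (-0.66, SE 0.26), and Yy1 417.3 and 404.5 against 339.3 and 390.6 (-0.17, SE 0.27). The cofactor Hcfc1 differed by 0.06, which was -0.06 with upper quartile scaling. Among members, the median log2 difference was 0.45 in the 7 with the YY1 letters and 0.26 in those without, 0.25 with and 0.29 without the ETS letters, 0.20 and 0.27 for the NRF1 letters, and 0.35 and 0.26 for the E-box. These groups are small, and no difference between them was tested.

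Many of these genes lie close to others in the genome. The start of 31 members lies within 1000 bases of the start of a protein-coding gene on the opposite strand, and 29 of these members were above 0, with a median of 0.24, against 36 of 41 other members with a median of 0.28. Of the 26 listed partners that are not members, 18 were above 0, with a median of 0.22. Mrps11 and Mrpl46 face each other and differed by 0.21 and 0.29. Mrpl36 and the complex I subunit gene Ndufs6 differed by 0.35 and 0.29, Mrpl44 and Wdfy1 by 0.68 and 0.64, and Mrps27 and Ptcd2 by 0.46 and 0.48. Other pairs went apart: Mrpl40 was at 0.27 and the histone chaperone gene Hira at -0.96, and Mrpl47 was at -0.12 and the complex I gene Ndufb5 at 0.35. Exons overlap on opposite strands between Mrps11 and Mrpl46, Mrpl36 and Ndufs6, Mrpl44 and Wdfy1, and Mrpl47 and Ndufb5. The values of these pairs may therefore share reads and are not separate measurements.

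Exons of 30 members overlap those of another gene on either strand, and the labels do not state that the libraries keep the strand, so reads of such genes may be shared. The 42 members without an overlap had 40 above 0 and a median of 0.29, and the 30 with one had 25 above 0 and a median of 0.21. In the authors' deposited table, 0 members had an adjusted p under 0.05, against 0.325% of all genes, and the lowest was 0.187 for Mrpl16. At an unadjusted p under 0.05 the authors' deposited table had 8 members higher, the same 8 genes as in the limma fit, against 5.56% of all genes, and 0 lower, against 4.2%. The authors' deposited table gave log2 differences of 0.62 for Mrpl16, 0.58 for Mrpl44, 0.54 for Mrps31 and 0.52 for Mrpl50, and a member median of 0.20 (0.02 for all genes).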

How the data were processed

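RNA-seq libraries of sorted stem cells, 2 WT and 2 Sin3B KO, were grouped by the genotype in the labels. The authors deposited 1 table of 9796 genes, of which 552 (5.63%) have no library values. Its signal values are normalised reads: the authors divided reads per gene by a size factor per library, as read from the values. Bowtie, DESeq and mm9 are named, without versions, in the submitters' processing notes; which annotation was counted is not given in the sources used here. Log2 fold changes and p-values from the authors' deposited table are quoted only where named, and the score in it, the authors' fold change over its standard error per the file headers, was not used. The lowest mean listed is 120.2, so low genes were not analysed here.

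Values were tested as log2(value + 1) with limma 3.58.1 in R 4.3.3 (trended prior, two-sided, Benjamini-Hochberg over all 9244 genes, threshold 0.05), without a replicate block. Fold changes are on that scale, which understates low genes. An exact permutation test of 2 against 2 cannot go below p = 0.333. The limma steps were tested on simulated data. The members and lists were chosen with earlier results of these data known, so counts and medians are descriptions. Genes were named by rule: members with the largest differences among those whose groups do not overlap, the highest and lowest levels per length, the Mrps18 paralogs, the stalk, and per list up to 2 genes in each direction plus the gene with the most reads. The other lists, of B lineage (summed values 4601, 2279, 5174 and 2465 in WT 1, WT 2, KO 1 and KO 2), T and NK (1952, 1570, 2937 and 1710) and megakaryocyte markers (39343, 37136, 37691 and 43070), and of LT-HSC markers (88060, 87048, 81286 and 94253), were summed likewise. Exon lengths came from GENCODE M21 for all 72 members and for 9000 genes (97.4%), and promoters from RefSeq, whose build differs from mm9, so coordinates are RefSeq's. Alternatives in scaling, pseudocount, filter, block and left-out libraries were run.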

Additional observations from a re-analysis of the deposited data

How the results depend on the processing

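No member had an adjusted p under 0.05 in any fit run with limma: other scalings (total, upper quartile, and a trimmed mean chosen after seeing the data), pseudocounts of 0.1 and 5, genes with a mean of at least 500 only, the replicate block, or 3 libraries; the other genes of mitochondrial translation had none either. Without the block 0 of 9244 genes were called (459 higher and 365 lower at an unadjusted p under 0.05), and with the replicate block 27 were, Sin3b among them; the lowest adjusted p of a member was then 0.124 (Mrpl16). The difference between replicates 1 and 2 correlated between genotypes at 0.46 over all genes and 0.50 over members, but the labels give the number no meaning, so the pairing is only a hint from the data. Leaving out 1 library gave 0 to 1 genes called, and a member median of 0.15 (without WT 1) to 0.44 (without WT 2); a group of 1 library is then assumed to vary like the other. The median was 0.18 with total scaling (59 members above 0, 44.2% of all genes) and 0.15 with upper quartile scaling. In every setting that kept them (13, or 12 for the 18 members with a mean under 500) 47 members were above 0 and 3 below. Of the 44 named genes, 8 changed sign in at least 1 setting: Mrpl10, Mrpl47, Mrpl48, Mrps10, Hcfc1, Hsd17b10, Mtif2 and Yme1l1, none of them called; the cause was not tested. The planned edgeR (quasi-likelihood and TMM scaling) and DESeq2 alternatives were not run, because the table lists no low genes against which reads recovered from its steps could be checked, so its values were kept as normalised values. At 113 to 3073 reads per member and 2 libraries per group, a difference as small as the member median was not detectable in a single gene.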
